A study of Mus musculus with 13 samples.

Results

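The genes described are the WNT ligands, their receptors and their antagonists, in FAPs of muscle, FAPs of lung and MEFs of the mouse. They were chosen by name: every Wnt, Fzd, Sfrp, Dkk and Rspo symbol in the count table, plus Wif1, Lrp5, Lrp6, Lgr4, Lgr5, Lgr6, Ror1, Ror2, Ryk, Axin2, Lef1 and Tcf7. The rule found 53 of the 23418 genes in the table: 19 ligands, 10 frizzled receptors, 5 co-receptors, 7 R-spondins and R-spondin receptors, 9 antagonists and 3 nuclear or target genes. The rule uses names and no measured value.

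WNTs are secreted, lipid-modified glycoproteins. On the receiving cell a frizzled receptor together with LRP5 or LRP6 passes the signal to β-catenin, which acts in the nucleus with TCF and LEF factors. ROR1, ROR2 and RYK serve branches that need no β-catenin. R-spondins bound to LGR receptors protect frizzleds from removal, SFRPs and WIF1 bind the ligands, and most DKKs bind LRP5 and LRP6. In muscle, FAPs are stromal neighbours of the satellite cells, the stem cells of the fibres, and WNTs are known regulators of satellite cell differentiation. In the lung, WNT2 and WNT2B are known from the mouse embryo as inducers of lung identity in the foregut.

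The series comprises bulk RNA sequencing of 13 mouse libraries and was set up to look in muscle and lung FAPs for transcripts that stimulate the differentiation of satellite cells. By common usage a FAP is a fibro/adipogenic progenitor and a MEF a mouse embryonic fibroblast, though the labels spell out neither. The groups are muscle FAP (4 libraries, replicates 2 to 5), lung FAP (5 libraries, replicates 1 to 5) and MEF (4 libraries, replicates 1 to 4). No genotype, strain, age, sex, treatment or cell sort is given in the sources used here. Nothing in the labels states that each replicate is another animal or culture, so p-values reflect only how these libraries vary, which may be technical.

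Total counts ranged over 41327292 to 44699463 in muscle FAP, 28636183 to 35464622 in lung FAP and 33756915 to 41466585 in MEF libraries. Levels are CPM, that is counts relative to library size, scaled by TMM. In bulk RNA fewer cells of a type cannot be told apart from less RNA per cell. The summed level of 8 FAP markers, among them Pdgfra, Ly6a and Cd34, was 93968 to 119008 CPM in muscle FAP, 46869.5 to 74619 CPM in lung FAP and 1522 to 1769 CPM in MEF. Such a sum is weighted by its most abundant genes. In muscle FAP against lung FAP 3 of the 8 were higher, 1 lower and 4 did not pass, with a median log2 fold change of -0.05. Against MEF 7 were higher in each FAP group and 1 did not pass. Lung FAP 3 stood apart with 8800.4 CPM of 10 lung epithelial markers, against 42.6 to 134 CPM in the other lung FAP libraries. It also held 656 CPM of 8 blood cell markers, against 30.99 to 54.5 CPM in the others, while MEF held 152 to 525 CPM. Lung FAP 2 stood apart with 740.1 CPM of 8 endothelial markers, against 40.5 to 229.8 CPM. Muscle FAP 3 and 5 had 24.5 and 28.2 CPM of 6 mesothelial markers, against 2.21 and 1.21 CPM in muscle FAP 2 and 4, and all 6 had counts in each group. In the sums of lung epithelial, blood cell and endothelial markers every lung FAP library lay above every muscle FAP library. Muscle FAP held 3.17 to 5.33, 6.19 to 8.4 and 3.76 to 12.03 CPM of them, in that order. Of the markers tested 5 of 9, 6 of 7 and 8 of 8 were lower in muscle FAP than in lung FAP, and none was higher. Marker sums of 2 other cell types also differed between the groups without overlap, though not all genes of a sum moved alike. The sum of 6 tenocyte markers was 1225 to 2199 CPM in muscle FAP, 97.6 to 186 CPM in lung FAP and 45.2 to 52.7 CPM in MEF. That of 8 smooth muscle and pericyte markers was 75.1 to 84.9 CPM in muscle FAP, 246 to 1826 CPM in lung FAP and 2142 to 3855 CPM in MEF. In muscle FAP against lung FAP all 6 tenocyte markers were higher, and of the 8 others 1 was higher and 6 lower. In lung FAP against MEF 2 tenocyte markers were higher and 3 lower (83.3% passed, against 74.4% of all genes tested). Of the 8 others 3 were higher and 3 lower (75% passed). MEF 2 and 4 held 87.2 and 99.5 CPM of Xist, the RNA of the inactive X chromosome, against 0.121 and 0.0227 CPM in MEF 1 and 3. MEF 4 also had counts of genes on the Y chromosome, so Xist alone does not give the sex of its cells. The part of these differences between libraries and groups in the values that follow was not tested unless a value is given.

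Of the 53 genes, 47 passed the filter on low counts, among 15412 genes tested. The other 6 were Wnt3a, Wnt8a, Wnt8b, Wnt9b, Dkk1 and Dkk4. Of these Dkk1 was the most abundant, with 0.393 ± 0.326 CPM in muscle FAP, 0.102 ± 0.0582 CPM in lung FAP and 0.188 ± 0.0523 CPM in MEF (SD, n = 4, 5 and 4). The threshold was a Benjamini-Hochberg adjusted p of 0.05 in edgeR's quasi-likelihood test, fitted over all 15412 genes and 13 libraries. All ± values are SD over the libraries of a group.

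Windows of 300 bases around the RefSeq start of 3 genes are shown (build GRCm38.p6). Each spans 250 bases before the start and 50 from it on, 5′ to 3′ on the gene's strand. Several other genes differed more between the 2 FAP groups than Wnt11. The 3 genes shown were picked by hand. They are Wnt11, the leading ligand of muscle FAP, Wnt2b, the leading ligand of lung FAP, and Axin2, the feedback target of β-catenin signalling. They lie at chr7:98834862-98835161 on the plus strand, chr3:104961660-104961959 on the minus strand and chr11:108920099-108920398 on the plus strand. Capitals mark the core letters CTTTGA bound by TCF and LEF factors, or TCAAAG where they are read on the other strand.
Wnt11: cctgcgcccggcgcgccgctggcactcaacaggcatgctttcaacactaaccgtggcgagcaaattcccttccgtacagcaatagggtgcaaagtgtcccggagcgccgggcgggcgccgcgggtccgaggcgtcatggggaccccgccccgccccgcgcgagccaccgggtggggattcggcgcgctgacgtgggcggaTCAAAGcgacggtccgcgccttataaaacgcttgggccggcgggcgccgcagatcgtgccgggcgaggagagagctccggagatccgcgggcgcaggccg
Wnt2b: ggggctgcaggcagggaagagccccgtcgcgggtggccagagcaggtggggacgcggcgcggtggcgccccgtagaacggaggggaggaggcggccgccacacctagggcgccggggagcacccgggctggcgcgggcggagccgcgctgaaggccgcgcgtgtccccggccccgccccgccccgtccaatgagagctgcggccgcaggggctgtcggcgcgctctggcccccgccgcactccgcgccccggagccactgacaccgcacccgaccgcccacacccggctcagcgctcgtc
Axin2: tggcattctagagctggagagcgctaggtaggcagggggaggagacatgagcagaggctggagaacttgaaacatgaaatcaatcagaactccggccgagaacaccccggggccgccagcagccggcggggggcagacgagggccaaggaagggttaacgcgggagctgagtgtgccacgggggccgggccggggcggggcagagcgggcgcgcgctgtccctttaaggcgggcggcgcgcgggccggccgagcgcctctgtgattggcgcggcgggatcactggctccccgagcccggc
The window of Wnt11 shown holds the letters once, at position 201 and on the other strand, and those of Wnt2b and Axin2 do not hold them. A second RefSeq start of Wnt11, with its window at chr7:98838595-98838894, has no match. Of all 32851 windows from RefSeq 16% hold these letters on either strand. Windows of 36 of the 53 genes were used, and 6 of these 43 windows (14%) hold the letters. Those of the other genes, among them Fzd8 and Wnt8a, were left out or not found. The windows of all genes may not have been chosen by the same rule, so the values are only given side by side. The WNT windows had a median GC content of 67.3% and a median of 25 CpG dinucleotides, against 52.7% and 7 over all windows.

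Set against lung FAP, muscle FAP held one WNT ligand at a high level, Wnt11, and less Wnt2b, Wnt4, Wnt5a, Wnt5b, Wnt2, Wnt9a and Wnt10b, together with less Axin2, Tcf7 and Lef1. The largest changes among genes at 5 CPM or more included Wnt2b, 30.2-fold lower in muscle FAP, Rspo1, 9.08-fold lower, and Wif1, 9.51-fold higher. The log2 fold change of Rspo1 was -4.94 without muscle FAP 3 and 5, the muscle FAP libraries with more mesothelial transcripts, against -3.18 with all libraries. Both libraries were set apart after seeing the data and held the most Rspo1 of muscle FAP. Leaving them out therefore lowers Rspo1 there in any case. A link to mesothelial transcripts was not tested. Of the 47 tested genes 15 were higher (31.9%, against 23.2% of all genes tested) and 20 lower (42.6%, against 25%). The other 12 did not pass, so that 74.5% passed in either direction, against 48.2% of all genes tested. With library size alone as the scaling 11 were higher and 25 lower, a share of higher calls of 30.6% against 42.9%. Fzd7, Ror2, Sfrp2 and Wnt10a then lost their higher call, and Lrp6, Lgr5, Rspo3, Sfrp1 and Wnt7b gained a lower one. There were 14 higher and 20 lower without lung FAP 2 and 3, 12 higher and 19 lower without muscle FAP 3 and 5, and 12 higher and 19 lower without MEF 2 and 4. The median log2 fold change was -0.52 over the tested WNT genes, -0.60 with genes lacking counts in a group set at their bound, and -0.04 over all genes.

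Set against MEF, muscle FAP had far more Sfrp4, Ror1, Wnt11, Rspo1 and Wif1 and far less Wnt7a, Lef1, Wnt16, Fzd10 and Fzd6. The change was 217-fold for Sfrp4, 25.02-fold for Wnt11 and 16.4-fold for Ror1. Of the 47 tested genes 19 were higher (40.4%, against 36.1% of all genes tested) and 21 were lower (44.7%, against 37.3%). The other 7 did not pass, so that 85.1% passed in either direction, against 73.5%. These were 20 higher and 21 lower without lung FAP 2 and 3, 17 and 21 without muscle FAP 3 and 5, and 18 and 20 without MEF 2 and 4. With library size alone Ror2 and Wnt6 lost their higher call, and Dkk3, Fzd1 and Lgr4 gained a lower one. The median log2 fold change was 0.08, against -0.04 over all genes.

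Set against MEF, lung FAP had more Sfrp4 (216-fold), Rspo1 (102-fold), Wnt5b (21.5-fold), Wnt2b (15.8-fold) and Wnt10b (13.1-fold), and less Wnt7a, Wnt16, Fzd10 and Fzd6. Of the 47 tested genes 20 were higher (42.6%, against 37.8% of all genes tested) and 16 were lower (34%, against 36.6%). The other 11 did not pass, so that 76.6% passed in either direction, against 74.4%, shares near those of all genes. There were 19 higher and 15 lower without lung FAP 2 and 3, 20 and 16 without muscle FAP 3 and 5, and 18 and 10 without MEF 2 and 4. With library size alone Wnt4 lost its higher call, and Lrp5 and Ror2 gained a lower one. The median log2 fold change was 0.05, against 0.02 over all genes. The 3 comparisons share libraries by pairs, so their values are given side by side and no overlap between them is read as a result.

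**Figure D1:**
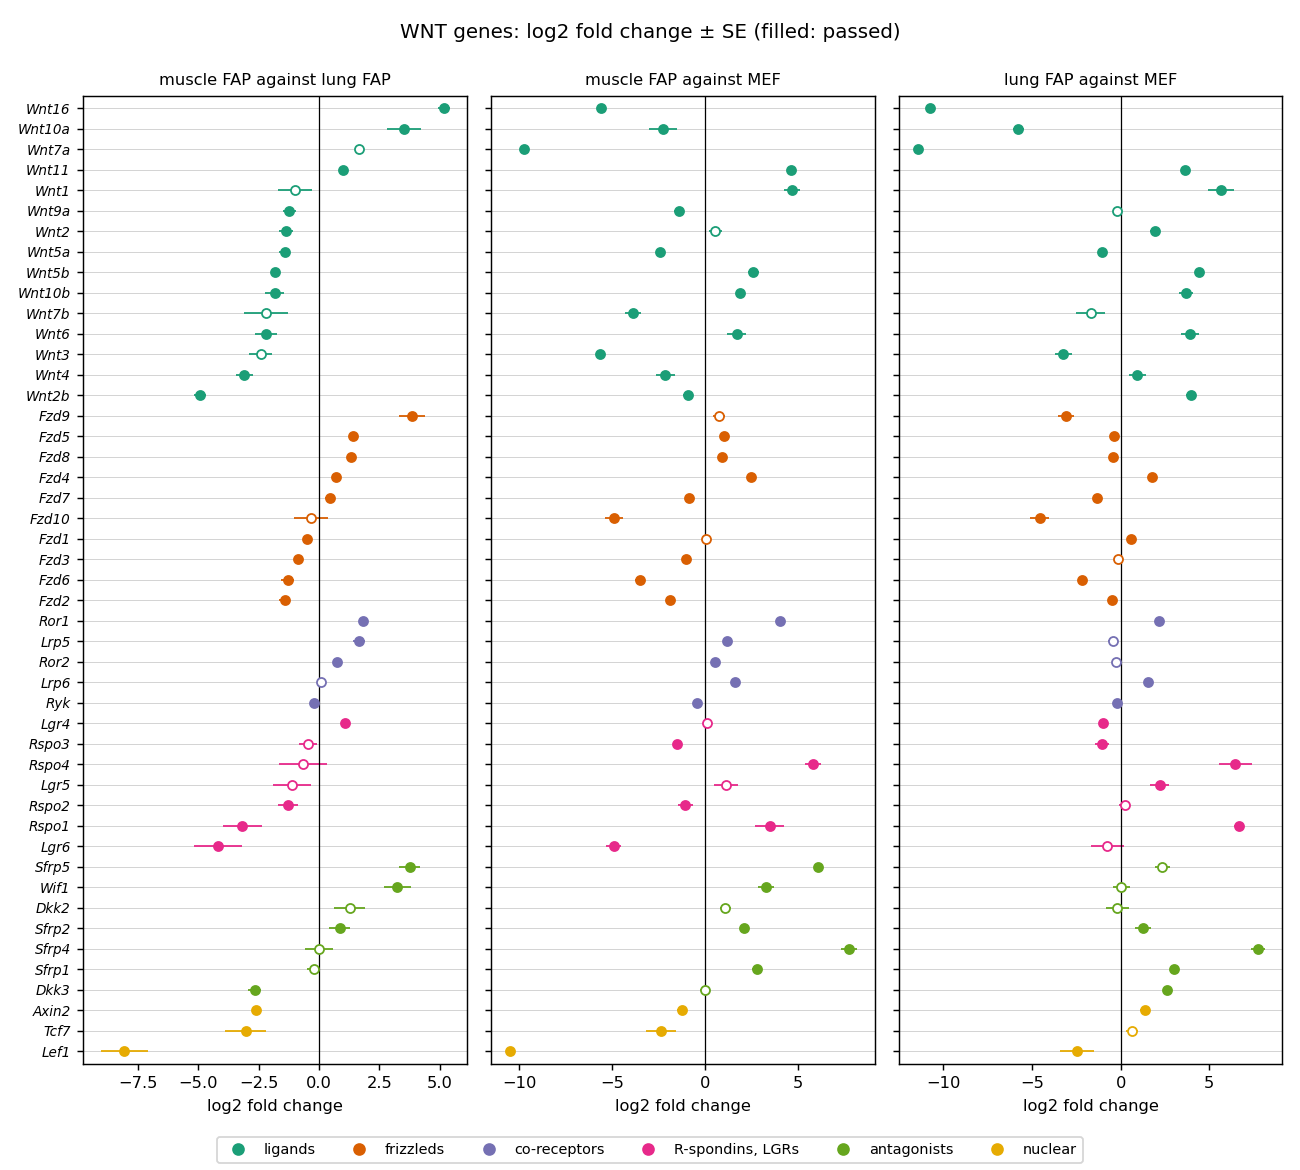
Log2 fold change (x axis) with its SE for each of the 47 tested genes (rows, ordered by role and by the first comparison) in 3 panels, muscle FAP against lung FAP, then both FAP groups against MEF, with filled points for genes that passed. In the first panel 8 of 15 ligands lie to the left of 0 as filled points, and the largest fitted values, those of Lef1, Wnt7a and Wnt16, belong to genes with at most 1 count in a group compared and depend on the prior count.

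The ligand transcripts differed between groups in which gene led. Per kilobase of exon, so that genes can be compared, Wnt11 held 23.9 ± 1.70 CPM per kb in muscle FAP (56.9% of the summed level of the 19 ligands), followed by Wnt9a with 5.24, Wnt5a with 3.29 and Wnt2 with 3.11 CPM per kb. In lung FAP Wnt2b led with 24.2 ± 6.88 CPM per kb (27.9%), followed by Wnt9a, Wnt11 and Wnt10b with 12.3, 12.03 and 10.8 CPM per kb. MEF was led by Wnt5a with 17.98 ± 2.02 CPM per kb (40.6%), followed by Wnt9a with 14.1 CPM per kb. Wnt11 made up 51.5 to 59.6% of the ligand sum in the muscle FAP libraries, 12.5 to 17.8% in the lung FAP libraries and 1.75 to 2.62% in the MEF libraries. The groups do not overlap in this share. The ligand sum was 41.9 ± 3.95 CPM per kb in muscle FAP, 86.5 ± 16.3 in lung FAP and 44.3 ± 2.96 in MEF (SD), with lung FAP 2, at 58.1 CPM per kb, the lowest of the lung FAP libraries.

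**Figure D2:**
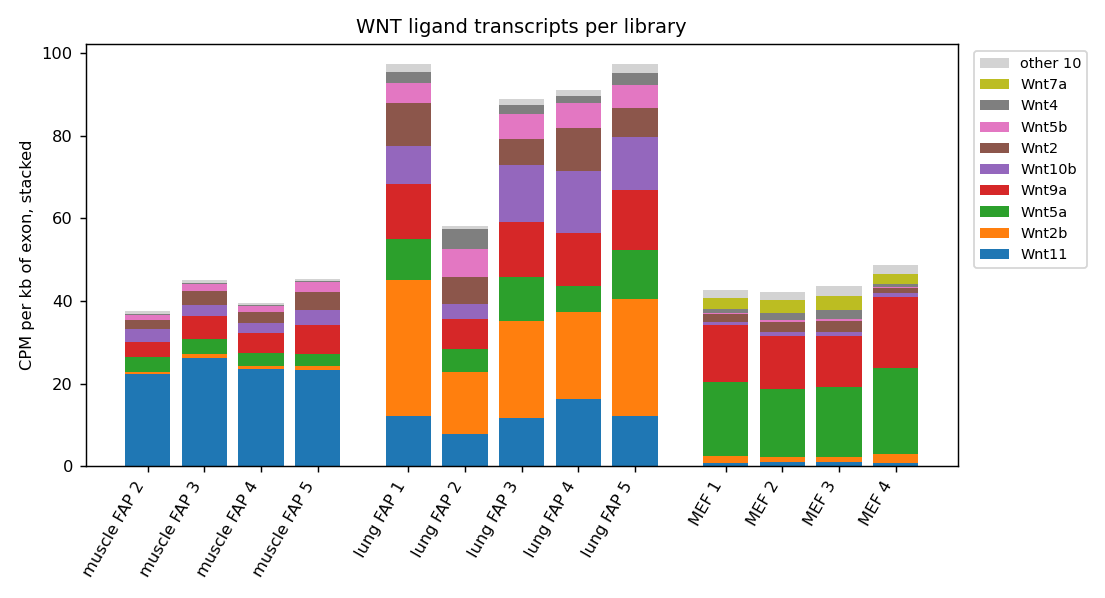
Stacked level of the WNT ligands in CPM per kb of exon (y axis) in each of the 13 libraries (x axis: muscle FAP, lung FAP, MEF), with 9 ligands in colour and the other 10 in grey. Wnt11 fills more than any other ligand in every muscle FAP bar, Wnt2b in every lung FAP bar and Wnt5a in every MEF bar, and the lung FAP 2 bar is the shortest of its group at 58.1 CPM per kb.

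Wnt11, a ligand best known for β-catenin-independent signalling in cell movement, had 92.2, 109, 97.4 and 96.5 CPM in muscle FAP 2 to 5. Wnt11 in lung FAP 1 to 5 had 50.2, 32.5, 48.7, 66.9 and 50.5 CPM, and in MEF 1 to 4 it had 3.54, 4.56, 4.16 and 3.52 CPM. The groups do not overlap, with muscle FAP highest and MEF lowest. Muscle FAP exceeded lung FAP (log2 fold change 0.99, SE 0.174, adjusted p in edgeR = 9.72e-05) and MEF (log2 fold change 4.64, SE 0.103, adjusted p in edgeR = 1.40e-11). Lung FAP exceeded MEF (log2 fold change 3.65, SE 0.190, adjusted p in edgeR = 9.33e-11).

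Wnt2b had 2.48, 3.96, 3.14 and 3.86 CPM in muscle FAP 2 to 5. Wnt2b in lung FAP 1 to 5 had 138, 62.9, 98.4, 88.6 and 119 CPM, and in MEF 1 to 4 it had 6.33, 4.99, 5.27 and 9.10 CPM. All 5 lung FAP libraries lay above every other library and all 4 muscle FAP libraries below every other library. Wnt2b was lower in muscle FAP than in lung FAP (log2 fold change -4.92, SE 0.249, adjusted p in edgeR = 7.67e-09) and than in MEF (log2 fold change -0.94, SE 0.248, adjusted p in edgeR = 0.00398). Lung FAP was higher than MEF in Wnt2b (log2 fold change 3.98, SE 0.275, adjusted p in edgeR = 3.31e-09). Wnt2, its partner in the specification of the mouse lung, reached 7.02 ± 2.43 CPM in muscle FAP, 18.3 ± 4.69 CPM in lung FAP and 4.81 ± 1.48 CPM in MEF. Lung FAP libraries again lay above all others, and Wnt2 was lower in muscle FAP than in lung FAP (log2 fold change -1.38, adjusted p = 6.44e-04 in edgeR). The difference in Wnt2 between muscle FAP and MEF did not pass (edgeR adjusted p = 0.0900, and 0.0422 without muscle FAP 2).

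Wnt5a, the classical ligand of ROR2 and a driver of limb and lung outgrowth in the mouse embryo, had 27.4, 27.4, 24.8 and 23.3 CPM in muscle FAP 2 to 5. Wnt5a in lung FAP 1 to 5 had 78.1, 43.2, 82.1, 49.5 and 91.4 CPM, and in MEF 1 to 4 it had 141, 127, 132 and 163 CPM. Muscle FAP was lowest, lung FAP between and MEF highest, with no overlap. All 3 comparisons passed (edgeR log2 fold change -1.42 for muscle FAP against lung FAP, -2.45 for muscle FAP against MEF and -1.03 for lung FAP against MEF). Its near relative Wnt5b had 3.38, 4.14, 4.23 and 5.93 CPM in muscle FAP 2 to 5. Wnt5b in lung FAP 1 to 5 had 13.1, 18.1, 16.3, 15.9 and 14.9 CPM, and in MEF 1 to 4 it had 0.461, 1.04, 0.795 and 0.615 CPM. Here lung FAP was highest, muscle FAP between and MEF lowest, without overlap. Wnt5b was lower in muscle FAP than in lung FAP (log2 fold change -1.83, SE 0.183, adjusted p in edgeR = 8.61e-06) and higher than in MEF (log2 fold change 2.59, SE 0.286, adjusted p in edgeR = 1.45e-07).

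Wnt4, a ligand needed for kidney and ovary formation in the mouse, had 1.51, 1.72, 0.720 and 1.59 CPM in muscle FAP 2 to 5. Wnt4 in lung FAP 1 to 5 had 10.5, 19.9, 9.18, 7.21 and 12.4 CPM, and in MEF 1 to 4 it had 4.92, 6.96, 9.996 and 2.60 CPM. Muscle FAP lay below every other library, and the highest value was in lung FAP 2, the lung FAP library with the most endothelial and smooth muscle transcripts. Wnt4 was lower in muscle FAP than in lung FAP (log2 fold change -3.10, SE 0.369, adjusted p in edgeR = 3.05e-05) and than in MEF (log2 fold change -2.14, SE 0.494, adjusted p in edgeR = 2.91e-04). The difference between lung FAP and MEF (log2 fold change 0.95, SE 0.476, adjusted p in edgeR = 0.0312) no longer passed without lung FAP 2 (log2 fold change 0.65, adjusted p = 0.0993), lung FAP 5 (0.0568), MEF 1 (0.0850) or MEF 4 (0.0874).

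Wnt10b, which holds back fat formation and favours bone, had 11.04, 9.11, 8.55 and 12.4 CPM in muscle FAP 2 to 5. Wnt10b in lung FAP 1 to 5 had 31.3, 12.2, 46.6, 50.9 and 43.3 CPM, and in MEF 1 to 4 it had 2.13, 3.46, 2.91 and 2.75 CPM. Muscle FAP and lung FAP overlap by 1 library, lung FAP 2, and MEF lay below all. Muscle FAP was lower than lung FAP (log2 fold change -1.84, SE 0.397, adjusted p in edgeR = 3.45e-04) and higher than MEF (log2 fold change 1.87, SE 0.187, adjusted p in edgeR = 2.23e-04). Its neighbour Wnt1 is encoded 11.7 kb away on the opposite strand of chromosome 15 and had 0.801 ± 0.303 CPM in muscle FAP, 1.62 ± 1.45 CPM in lung FAP and 0.0295 ± 0.0359 CPM in MEF. Both FAP groups lay above MEF without overlap, and the MEF libraries held 5 counts of Wnt1 in all. Wnt1 differed between muscle FAP and MEF (edgeR log2 fold change 4.67, adjusted p = 5.09e-04, and 5.48 without MEF 1). It also differed between lung FAP and MEF (edgeR log2 fold change 5.68, adjusted p = 8.20e-05, 4.98 without lung FAP 5 and 6.50 without MEF 1). For muscle FAP against lung FAP its edgeR adjusted p was 0.262.

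Wnt7a, which drives symmetric division of satellite stem cells in mouse muscle when supplied, had 0, 0.0296, 0 and 0 CPM in muscle FAP 2 to 5. Wnt7a in lung FAP 1 to 5 had 0, 0, 0, 0 and 0 CPM, and in MEF 1 to 4 it had 7.93, 10.3, 10.6 and 8.11 CPM. The transcript was in MEF libraries, with 1675 counts over the group, against 1 count in all of muscle FAP and 0 in all of lung FAP. Muscle FAP was 1259.9-fold lower than MEF with a 95% counting interval of 226 to 49791 (edgeR adjusted p = 2.22e-08). Lung FAP was at least 514-fold lower when set at 3 counts over the group (edgeR adjusted p = 7.24e-09). Without muscle FAP 3, which holds the single count, no count remained in muscle FAP. The intervals and floors cover counting error only.

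Wnt16, a ligand known for its part in cortical bone, had 0.116, 0.0887, 0.202 and 0.0599 CPM in muscle FAP 2 to 5. Wnt16 in lung FAP 1 to 5 had 0, 0, 0, 0 and 0 CPM, and in MEF 1 to 4 it had 6.16, 4.82, 5.88 and 6.23 CPM. MEF lay above every FAP library, and no lung FAP library had a count. Muscle FAP held 16 counts in all and was 49.5-fold lower than MEF (edgeR adjusted p = 3.09e-07) and at least 6.53-fold higher than lung FAP set at 3 counts (edgeR adjusted p = 2.91e-04). Lung FAP was at least 320.4-fold lower than MEF (edgeR adjusted p = 1.63e-08).

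The other ligands were fewer in changes or lower in level. Wnt9a, a ligand of joint-forming cells, had 17.5 ± 4.54 CPM in muscle FAP, 41.1 ± 9.62 CPM in lung FAP and 47.02 ± 7.17 CPM in MEF. Muscle FAP lay below both other groups in every library (edgeR log2 fold change -1.23, adjusted p = 1.90e-04 against lung FAP and -1.43, adjusted p = 2.51e-05 against MEF). Lung FAP and MEF did not differ past the threshold (edgeR adjusted p = 0.386). Wnt3a, which is encoded 16.2 kb from Wnt9a on the opposite strand of chromosome 11, had 0, 2 and 0 counts over the muscle FAP, lung FAP and MEF groups.

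Wnt6 and Wnt10a lie 6.2 kb apart on the same strand of chromosome 1 and had opposite leading groups. Wnt6 had 0.316 ± 0.175 CPM in muscle FAP, 1.47 ± 0.927 CPM in lung FAP and 0.0949 ± 0.0813 CPM in MEF, with all lung FAP libraries above the rest. It was lower in muscle FAP than in lung FAP (edgeR log2 fold change -2.21, adjusted p = 0.00866). Its difference between muscle FAP and MEF (edgeR log2 fold change 1.70, adjusted p = 0.0372) no longer passed without any one of muscle FAP 3, muscle FAP 4, MEF 1, MEF 2 or MEF 4 (adjusted p = 0.139, 0.0628, 0.0982, 0.0663 and 0.103). Lung FAP against MEF passed (log2 fold change 3.91, and 4.56 without MEF 3). Wnt10a had 14 counts over muscle FAP, 1 count over lung FAP and 92 counts over MEF. Lung FAP was 84.7-fold lower than MEF, with a 95% counting interval of 14.8 to 3382 (edgeR adjusted p = 5.29e-04). The calls of Wnt10a for muscle FAP (edgeR adjusted p = 0.0443 against lung FAP and 0.0437 against MEF) rest on few counts, 12 of them in muscle FAP 3. The first was lost without any one of muscle FAP 2 or 3 or lung FAP 1 to 5 (adjusted p = 0.0512 to 0.490), and the second without any one of muscle FAP 2, 4 or 5 or MEF 1 to 4 (adjusted p = 0.0609 to 0.130).

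Wnt3 and Wnt7b, both at or below 2 CPM in every library, were highest in MEF. Wnt3 had 1 count over muscle FAP, 9 over lung FAP and 96 over MEF. Its level was 72.2-fold lower in muscle FAP than in MEF with a 95% counting interval of 12.7 to 2881 (edgeR adjusted p = 7.19e-04). It was 9.96-fold lower in lung FAP than in MEF (edgeR adjusted p = 0.00422, log2 fold change -4.86 without lung FAP 3). Wnt7b, a ligand of lung epithelium in the mouse, had 0.0948 ± 0.0690 CPM in muscle FAP, 0.449 ± 0.564 CPM in lung FAP and 1.45 ± 0.160 CPM in MEF. It had 1.40 CPM in lung FAP 3, the library rich in epithelial transcripts, and at most 0.499 CPM in the other lung FAP libraries. It was lower in muscle FAP than in MEF (edgeR adjusted p = 0.00344). The difference between lung FAP and MEF (edgeR log2 fold change -1.68, adjusted p = 0.0830) passed without lung FAP 3 (-2.77, adjusted p = 0.00546).

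Counted over the ligands tested, muscle FAP was higher than lung FAP in 3 of 15 (20%, against 23.2% of all genes tested), lower in 8 (53.3%, against 25%) and not past the threshold in 4. Against MEF muscle FAP was higher in 5, lower in 9 and not past the threshold in 1 (93.3% passed, against 73.5% of all genes tested). In lung FAP against MEF, 8 were higher, 5 lower and 2 did not pass (86.7%, against 74.4%).

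The frizzled receptors split between the groups by gene. Scaled by TMM, muscle FAP had more Fzd4, Fzd5 and Fzd8 than either other group in every library, and less Fzd2, Fzd3 and Fzd6. MEF had the most Fzd7, Fzd6 and Fzd10. Scaled by library size alone, Fzd4 and Fzd8 in muscle FAP overlap another group. The summed frizzled level was 62.2 ± 2.01 CPM per kb in muscle FAP, 62.7 ± 11.4 in lung FAP and 72.4 ± 5.80 in MEF. Muscle FAP was higher than lung FAP in 5 of 10, lower in 4 and not past the threshold in 1 (90% passed, against 48.2% of all genes tested). Against MEF it was higher in 3, lower in 5 and not past the threshold in 2 (80%, against 73.5%). Lung FAP against MEF was higher in 2, lower in 7 and not past the threshold in 1 (90%, against 74.4%).

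**Figure D3:**
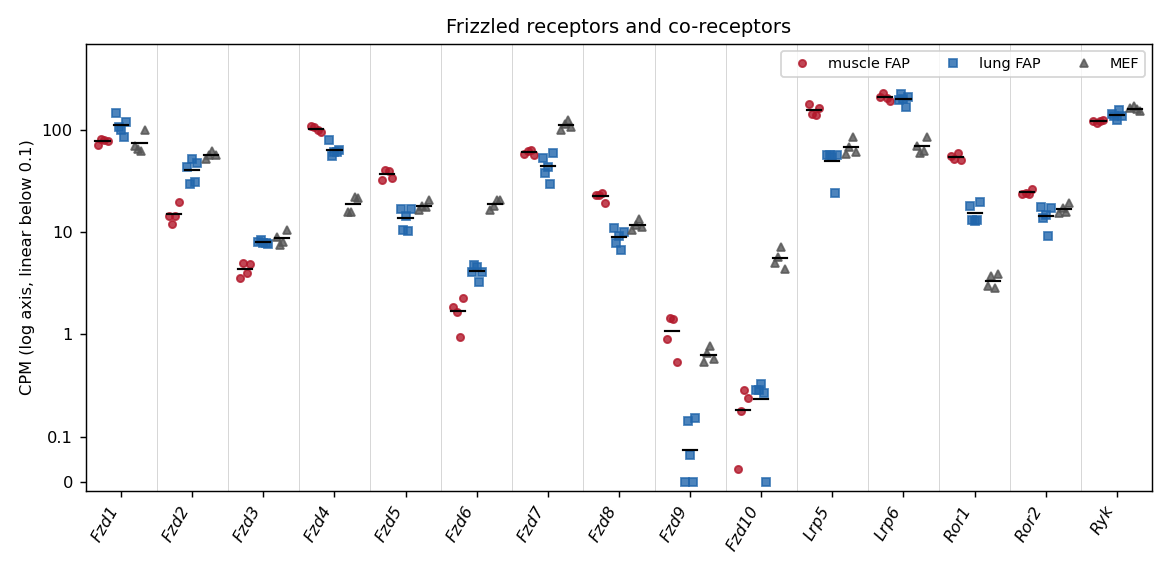
CPM (y axis, log scale, linear below 0.1) of the 10 frizzled receptors and 5 co-receptors in each library of muscle FAP, lung FAP and MEF, left to right within a gene, with bars at the group means. With levels scaled by TMM, muscle FAP points lie above all others for Fzd4, Fzd5, Fzd8, Lrp5, Ror1 and Ror2. MEF points lie above all others for Fzd2, Fzd6, Fzd7 and Fzd10, while lung FAP 4 lies alone at 24.1 CPM in Lrp5.

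Fzd4, a receptor of WNTs and of norrin, had 109.9, 108, 101 and 96.1 CPM in muscle FAP 2 to 5. Fzd4 in lung FAP 1 to 5 had 80.9, 56.1, 60.6, 60.6 and 63.4 CPM, and in MEF 1 to 4 it had 15.7, 15.8, 22.2 and 21.5 CPM. The groups do not overlap, with muscle FAP highest and MEF lowest. Every comparison passed (log2 fold change 0.69, SE 0.101, adjusted p in edgeR = 4.36e-04 for muscle FAP against lung FAP, and edgeR log2 fold change 2.47 for muscle FAP and 1.77 for lung FAP, each against MEF). Scaled by library size alone, muscle FAP 4 and 5 lay below lung FAP 1 in Fzd4. The log2 fold change against lung FAP was then 0.29 (edgeR adjusted p = 0.0396). Fzd5 had 32.9, 40.9, 40.3 and 33.98 CPM in muscle FAP 2 to 5. Fzd5 in lung FAP 1 to 5 had 17.1, 10.5, 14.5, 10.2 and 16.97 CPM, and in MEF 1 to 4 it had 16.7, 18.04, 17.5 and 20.6 CPM. Muscle FAP lay above both other groups, which overlap (log2 fold change 1.42, SE 0.181, adjusted p in edgeR = 4.26e-06 against lung FAP, and log2 fold change 1.02, SE 0.104, adjusted p in edgeR = 5.32e-05 against MEF).

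Fzd8, which resembles Fzd5 in sequence, had 23.04, 23.4, 24.3 and 19.3 CPM in muscle FAP 2 to 5. Fzd8 in lung FAP 1 to 5 had 11.1, 7.85, 9.18, 6.71 and 10.02 CPM, and in MEF 1 to 4 it had 10.6, 11.9, 13.6 and 11.4 CPM. Its pattern was that of Fzd5, muscle FAP above the rest (log2 fold change 1.33, SE 0.148, adjusted p in edgeR = 3.91e-06 against lung FAP, and log2 fold change 0.92, SE 0.104, adjusted p in edgeR = 6.73e-05 against MEF). Scaled by library size alone, muscle FAP 5 lay just below MEF 3 in Fzd8. The log2 fold change against MEF was then 0.35 (edgeR adjusted p = 0.0378). In lung FAP against MEF both genes passed narrowly, Fzd5 with a log2 fold change of -0.39 (edgeR adjusted p = 0.0342) and Fzd8 with -0.40 (0.0216). Fzd5 no longer passed without lung FAP 2, lung FAP 4, MEF 2 or MEF 4 (adjusted p = 0.0552, 0.0520, 0.0539 and 0.0885). Fzd8 no longer passed without MEF 3 (0.0642).

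Fzd1 was the leading frizzled per kilobase in both FAP groups, at 18.8 ± 1.08 CPM per kb in muscle FAP and 26.9 ± 5.60 in lung FAP. It had 72.4, 82.99, 80.5 and 79.1 CPM in muscle FAP 2 to 5. Fzd1 in lung FAP 1 to 5 had 149, 108, 101, 86.5 and 120.4 CPM, and in MEF 1 to 4 it had 69.5, 64.9, 63.2 and 101 CPM. Muscle FAP lay below lung FAP in every library (log2 fold change -0.52, SE 0.137, adjusted p in edgeR = 0.0142, and log2 fold change -0.56, adjusted p = 0.0592 without muscle FAP 3 and 5). Lung FAP was higher than MEF in Fzd1 (log2 fold change 0.60, SE 0.206, adjusted p in edgeR = 0.00340). MEF 4, at 101 CPM, stood above the other MEF libraries. Fzd7, a receptor of WNT7A on satellite cells, led in MEF at 24.8 ± 2.48 CPM per kb and had 58.8, 62.4, 64.8 and 57.6 CPM in muscle FAP 2 to 5. Fzd7 in lung FAP 1 to 5 had 53.7, 38.4, 43.7, 29.9 and 59.3 CPM, and in MEF 1 to 4 it had 100.1, 115, 127 and 108 CPM. MEF lay above both FAP groups (edgeR log2 fold change -0.89, adjusted p = 1.96e-04 in muscle FAP and -1.32, adjusted p = 1.76e-06 in lung FAP, each against MEF). The 2 FAP groups overlap. The higher level in muscle FAP than in lung FAP (log2 fold change 0.44, SE 0.180, adjusted p in edgeR = 0.0314) no longer passed without any one of muscle FAP 3, muscle FAP 4, lung FAP 2 or lung FAP 3 (adjusted p = 0.0686, 0.0796, 0.0535 and 0.0561). With libraries scaled by size alone the log2 fold change of Fzd7 was 0.04 (adjusted p = 0.841).

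Fzd6, known for planar polarity of hair and skin in the mouse, had 1.86, 1.66, 0.950 and 2.28 CPM in muscle FAP 2 to 5. Fzd6 in lung FAP 1 to 5 had 4.10, 4.80, 4.56, 3.26 and 4.09 CPM, and in MEF 1 to 4 it had 16.7, 18.1, 20.7 and 20.6 CPM. Muscle FAP was lowest and MEF highest, without overlap (log2 fold change -1.30, SE 0.277, adjusted p in edgeR = 1.53e-04 for muscle FAP against lung FAP, and edgeR log2 fold change -3.49 for muscle FAP and -2.19 for lung FAP, each against MEF). Fzd10 had 0.0291, 0.177, 0.288 and 0.239 CPM in muscle FAP 2 to 5. Fzd10 in lung FAP 1 to 5 had 0.286, 0.285, 0.328, 0.266 and 0 CPM, and in MEF 1 to 4 it had 5.07, 5.73, 7.22 and 4.43 CPM. It was at or below 0.328 CPM in every FAP library and 30.6-fold lower in muscle FAP than in MEF (log2 fold change -4.91, SE 0.484, adjusted p in edgeR = 6.99e-06). Fzd10 was also lower in lung FAP than in MEF (log2 fold change -4.57, SE 0.558, adjusted p in edgeR = 4.18e-06).

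Among the other frizzleds, Fzd2 had 15.3 ± 3.35 CPM in muscle FAP, 41.1 ± 10.2 CPM in lung FAP and 57.4 ± 3.78 CPM in MEF. Muscle FAP lay below both groups (edgeR log2 fold change -1.43, adjusted p = 1.44e-05 against lung FAP and -1.91, adjusted p = 2.53e-07 against MEF). Lung FAP was lower than MEF in Fzd2 (-0.48, adjusted p = 0.0197 in edgeR, and 0.0691 without MEF 2 and 4). Fzd3 had 4.37 ± 0.697 CPM in muscle FAP, 7.99 ± 0.322 CPM in lung FAP and 8.77 ± 1.31 CPM in MEF. It was again lowest in muscle FAP (edgeR log2 fold change -0.87, adjusted p = 2.99e-04 against lung FAP and -1.004, adjusted p = 4.46e-05 against MEF). Fzd9 was near the detection limit in lung FAP, with 1.08 ± 0.436 CPM in muscle FAP, 0.0706 ± 0.0736 CPM in lung FAP and 0.634 ± 0.106 CPM in MEF. It was 15.2-fold higher in muscle FAP than in lung FAP (edgeR adjusted p = 4.17e-04) and lower in lung FAP than in MEF (0.00103).

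Of the co-receptors, Lrp5, Ror1 and Ror2 were higher in muscle FAP than in both other groups, for Ror2 not with scaling by library size, and Lrp6 was higher in both FAP groups than in MEF. Lrp5, which acts beside frizzleds in the β-catenin branch and is known for its control of bone mass, had 179.8, 145, 142 and 167 CPM in muscle FAP 2 to 5. Lrp5 in lung FAP 1 to 5 had 56.9, 57.4, 55.3, 24.1 and 57.3 CPM, and in MEF 1 to 4 it had 58.8, 69.3, 85.3 and 61.2 CPM. Muscle FAP exceeded lung FAP (log2 fold change 1.66, SE 0.260, adjusted p in edgeR = 1.81e-05) and MEF (log2 fold change 1.21, SE 0.145, adjusted p in edgeR = 1.94e-04) without overlap. Lung FAP 4, at 24.1 CPM, lay far under the other lung FAP libraries. Lung FAP against MEF did not pass (log2 fold change -0.45, SE 0.275, adjusted p in edgeR = 0.0634), and it passed without lung FAP 2 (adjusted p = 0.0387), lung FAP 4 (0.0286) or lung FAP 5 (0.0478). It also passed in edgeR with library size alone (adjusted p = 0.0158), with DESeq2's size factors (0.0494) and with replicate number as a further factor (0.0277). In DESeq2 itself the adjusted p was 0.0402.

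Lrp6 had 213, 231, 207 and 195 CPM in muscle FAP 2 to 5. Lrp6 in lung FAP 1 to 5 had 198, 225, 204, 169.9 and 211 CPM, and in MEF 1 to 4 it had 69.6, 60.5, 62.5 and 86.4 CPM. The FAP groups overlap, and their difference did not pass (log2 fold change 0.07, SE 0.0848, adjusted p in edgeR = 0.663). With libraries scaled by size alone it had a log2 fold change of -0.34 (adjusted p = 0.0279). MEF lay below both (log2 fold change 1.60, SE 0.127, adjusted p in edgeR = 1.64e-08 for muscle FAP, and log2 fold change 1.53, SE 0.134, adjusted p in edgeR = 1.65e-08 for lung FAP). The level of Lrp5 relative to Lrp6 per kilobase was 16.3 against 15.5 CPM per kb in muscle FAP, 5.15 against 14.8 in lung FAP and 7.05 against 5.10 in MEF.

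Ror1 and its relative Ror2 are receptor tyrosine kinases that bind WNT5A. Ror1 had 56.3, 52.7, 60.3 and 51.2 CPM in muscle FAP 2 to 5. Ror1 in lung FAP 1 to 5 had 17.99, 13.2, 12.8, 13.4 and 19.98 CPM, and in MEF 1 to 4 it had 2.98, 3.76, 2.84 and 3.89 CPM. Muscle FAP was highest and MEF lowest, with no overlap. Muscle FAP exceeded lung FAP (log2 fold change 1.83, SE 0.142, adjusted p in edgeR = 1.48e-07) and MEF (log2 fold change 4.03, SE 0.125, adjusted p in edgeR = 2.28e-11). The difference between lung FAP and MEF also passed (log2 fold change 2.20, SE 0.174, adjusted p in edgeR = 7.53e-09). Ror2 had 24.6 ± 1.52 CPM in muscle FAP, 14.6 ± 3.41 CPM in lung FAP and 17.1 ± 1.71 CPM in MEF. It was higher in muscle FAP than in lung FAP (edgeR log2 fold change 0.76, adjusted p = 0.00104, and 0.36, adjusted p = 0.0585, scaled by library size). It was also higher in muscle FAP than in MEF (edgeR log2 fold change 0.53, adjusted p = 0.00992, but -0.05, adjusted p = 0.791, scaled by library size, and adjusted p = 0.0839 without muscle FAP 3 and 5).

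Ryk, the co-receptor with the highest level per kilobase in all 3 groups (27.03, 31.2 and 35.96 CPM per kb in muscle FAP, lung FAP and MEF), had 123, 118, 123 and 126 CPM in muscle FAP 2 to 5. Ryk in lung FAP 1 to 5 had 145, 139, 127, 157 and 139 CPM, and in MEF 1 to 4 it had 166, 172, 161 and 154 CPM. Muscle FAP lay just under lung FAP in every library (log2 fold change -0.21, SE 0.0530, adjusted p in edgeR = 0.0464). That call was lost without muscle FAP 2, 3, 4 or 5 (adjusted p = 0.0781, 0.104, 0.0839 and 0.0615) and without lung FAP 1, 2, 4 or 5 (0.0743, 0.0747, 0.105 and 0.0739). Muscle FAP was lower than MEF (log2 fold change -0.41, SE 0.0376, adjusted p in edgeR = 4.69e-04). Lung FAP was also lower than MEF (log2 fold change -0.20, SE 0.0599, adjusted p in edgeR = 0.0324), a call lost without lung FAP 3, MEF 1 or MEF 2 (adjusted p = 0.0963, 0.0594 and 0.0796).

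Over the 5 co-receptors muscle FAP was higher than lung FAP in 3, lower in 1 and not past the threshold in 1 (80% passed, against 48.2% of all genes tested). Against MEF muscle FAP was higher in 4 and lower in 1 (100%, against 73.5%). In lung FAP against MEF, 2 were higher, 1 lower and 2 did not pass (60%, against 74.4%).

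Among the R-spondins, which raise the response of a cell to WNT, and their receptors, Rspo1 set lung FAP apart. It made up 78.6% of the summed level per kilobase of the 7 genes in lung FAP, at 26.8 ± 10.2 CPM per kb. Lgr4 led in muscle FAP with 5.96 ± 0.730 and in MEF with 5.64 ± 0.791 CPM per kb. Rspo1 had 2.27, 7.81, 1.09 and 11.7 CPM in muscle FAP 2 to 5. Rspo1 in lung FAP 1 to 5 had 79.3, 28.5, 37.7, 54.9 and 59.1 CPM, and in MEF 1 to 4 it had 0.485, 0.594, 0.523 and 0.430 CPM. The groups do not overlap, with lung FAP highest and MEF lowest, and muscle FAP 3 and 5 lay above muscle FAP 2 and 4. Muscle FAP was lower than lung FAP (log2 fold change -3.18, SE 0.817, adjusted p in edgeR = 5.83e-04) and higher than MEF (log2 fold change 3.48, SE 0.780, adjusted p in edgeR = 4.63e-04). Lung FAP was higher than MEF in Rspo1 (log2 fold change 6.67, SE 0.273, adjusted p in edgeR = 2.36e-06).

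Mesothelial transcripts and Rspo1 were both higher in muscle FAP 3 and 5 than in muscle FAP 2 and 4, and both higher in lung FAP than in muscle FAP. The summed level of the 6 mesothelial markers, among them Upk3b, Wt1 and Msln, was 2.21, 24.5, 1.21 and 28.2 CPM in muscle FAP 2 to 5, 415 to 948 CPM in lung FAP and 119.6 to 157 CPM in MEF. Without muscle FAP 3 and 5 the log2 fold change of Rspo1 was -4.94 against lung FAP (adjusted p = 7.38e-06) and 1.70 against MEF (adjusted p = 0.00387). Without muscle FAP 5 alone these were -3.80 and 2.85. MEF held more mesothelial transcripts than any muscle FAP library and less Rspo1 than any of them. Muscle FAP 3 and 5 were set apart after seeing the data and held the most Rspo1 of their group, so the change without them was bound to be larger against lung FAP. A link between Rspo1 and mesothelial transcripts was not tested. Lgr5 had 1.19, 6.18, 1.21 and 4.58 CPM in muscle FAP 2 to 5. Lgr5 in lung FAP 1 to 5 had 11.2, 4.995, 4.50, 1.96 and 12.97 CPM, and in MEF 1 to 4 it had 1.04, 2.17, 1.25 and 1.64 CPM. Muscle FAP 3 and 5 were again above muscle FAP 2 and 4, so leaving them out must lower Lgr5 in muscle FAP. The difference from lung FAP did not pass (log2 fold change -1.11, SE 0.783, adjusted p in edgeR = 0.129) but passed without muscle FAP 3 and 5 (log2 fold change -2.56, adjusted p = 0.00966). Lung FAP was higher than MEF in Lgr5 (edgeR log2 fold change 2.22, adjusted p = 0.00435).

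**Figure D4:**
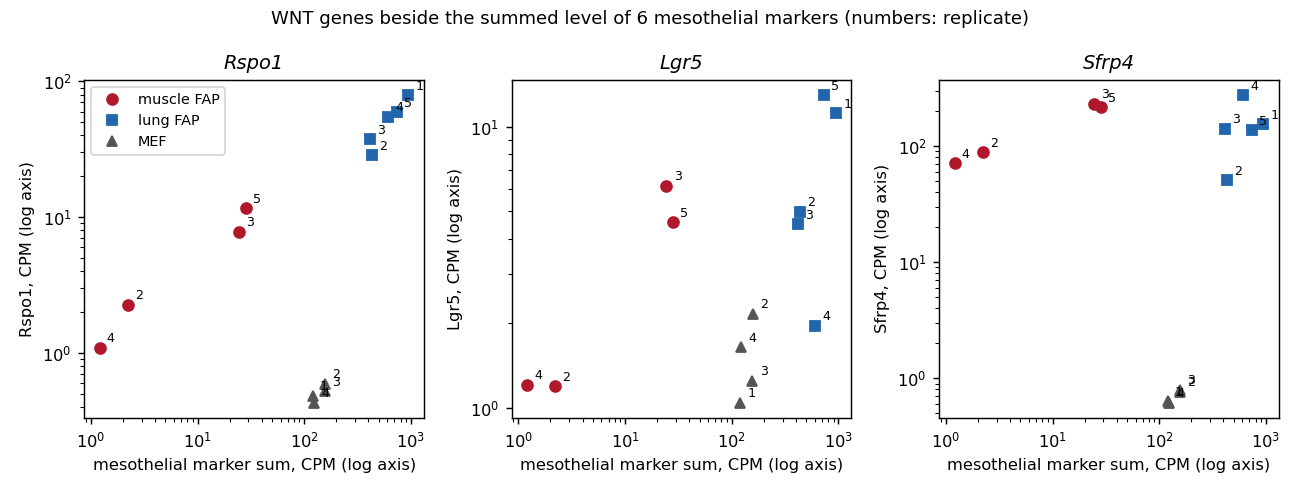
CPM of Rspo1, Lgr5 and Sfrp4 (y axes, log scale) against the summed CPM of 6 mesothelial markers (x axes, log scale) in the 13 libraries, numbered by replicate. Muscle FAP 3 and 5 lie to the right of and above muscle FAP 2 and 4 in all 3 panels, and the MEF points, with a marker sum of 119.6 to 157 CPM, have less Rspo1 and Sfrp4 than any FAP library.

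Lgr4, the most widely expressed R-spondin receptor, had 32.3, 41.2, 34.99 and 31.8 CPM in muscle FAP 2 to 5. Lgr4 in lung FAP 1 to 5 had 18.2, 17.8, 17.3, 14.7 and 15.6 CPM, and in MEF 1 to 4 it had 29.7, 31.7, 40.03 and 31.3 CPM. Lung FAP lay below both other groups, which overlap. Muscle FAP was higher than lung FAP (log2 fold change 1.07, SE 0.104, adjusted p in edgeR = 3.40e-06), and lung FAP was lower than MEF (log2 fold change -0.99, SE 0.113, adjusted p in edgeR = 1.57e-06). Muscle FAP against MEF did not pass (log2 fold change 0.08, SE 0.128, adjusted p in edgeR = 0.561), and with libraries scaled by size alone muscle FAP was lower (log2 fold change -0.50, adjusted p = 0.00166).

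Rspo3, an R-spondin of blood vessel development, had 6.08 ± 1.05 CPM in muscle FAP, 8.32 ± 3.91 CPM in lung FAP and 17.2 ± 3.96 CPM in MEF. It was lower than in MEF in muscle FAP (edgeR log2 fold change -1.50, adjusted p = 9.85e-04) and in lung FAP (-1.05, adjusted p = 0.00693, and 0.0624 without MEF 2 and 4). Muscle FAP against lung FAP did not pass in Rspo3 (edgeR adjusted p = 0.262) and passed without lung FAP 2 (0.0406). Rspo2, needed for limb and lung formation in the mouse, had 1.29 ± 0.639 CPM in muscle FAP, 3.19 ± 1.03 CPM in lung FAP and 2.71 ± 0.783 CPM in MEF. It was lower in muscle FAP than in lung FAP (edgeR log2 fold change -1.30, adjusted p = 0.00973, and 0.138 without muscle FAP 3 and 5). Its lower level in muscle FAP than in MEF (edgeR adjusted p = 0.0217) did not pass without muscle FAP 3, muscle FAP 5 or MEF 3 (0.0623, 0.0565 and 0.0651).

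Rspo4, the R-spondin of nail formation, had 66 counts over muscle FAP, 132 over lung FAP and 1 over MEF. Muscle FAP was 87.7-fold higher than MEF with a 95% counting interval of 15.2 to 3518 (edgeR adjusted p = 0.00163). Lung FAP was 143-fold higher with an interval of 25.3 to 5705 (edgeR adjusted p = 5.59e-04). The libraries had 0.202 to 0.838 CPM in muscle FAP, 0 to 1.84 CPM in lung FAP and 0 to 0.0205 CPM in MEF, and lung FAP overlaps MEF through lung FAP 4, which had no count. Lung FAP 2 and 5 held 51 and 61 of the lung FAP counts, and without MEF 4, which holds the single MEF count, none remained in MEF. Lgr6 had 0.0445 ± 0.0572 CPM in muscle FAP, 0.866 ± 0.720 CPM in lung FAP and 1.45 ± 0.135 CPM in MEF, and its highest lung FAP value, 1.83 CPM, was in lung FAP 2. Muscle FAP was lower than lung FAP in Lgr6 (edgeR log2 fold change -4.20, adjusted p = 0.00458, and -5.26 without muscle FAP 5). It was also lower than MEF (-4.93, adjusted p = 8.31e-04, and -6.01 without muscle FAP 5).

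Over the 7 R-spondins and receptors muscle FAP was higher than lung FAP in 1, lower in 3 and not past the threshold in 3 (57.1% passed, against 48.2% of all genes tested). Against MEF muscle FAP was higher in 2, lower in 3 and not past the threshold in 2 (71.4%, against 73.5%). In lung FAP against MEF, 3 were higher, 2 lower and 2 did not pass (71.4%, against 74.4%). These shares lie near those of all genes.

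The antagonists had the highest summed level per kilobase of the 6 roles in both FAP groups. Their summed level was 149.8 ± 34.5 CPM per kb in muscle FAP and 179 ± 26.9 in lung FAP, against 38.6 ± 4.77 in MEF. In muscle FAP Sfrp4, Sfrp2, Sfrp1 and Dkk2 lay close together, at 36.4, 35.6, 32.9 and 28.2 CPM per kb. In lung FAP Dkk3 led with 72.9 before Sfrp1 with 38.4 and Sfrp4 with 36.3, and in MEF Dkk2 led with 13.2 before Dkk3 with 11.7. Of the 7 tested, muscle FAP was higher than lung FAP in 3, lower in 1 and not past the threshold in 3 (57.1% passed, against 48.2% of all genes tested). Against MEF muscle FAP was higher in 5 and not past the threshold in 2 (71.4%, against 73.5%), and lung FAP was higher in 4 and not past the threshold in 3 (57.1%, against 74.4%).

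**Figure D5:**
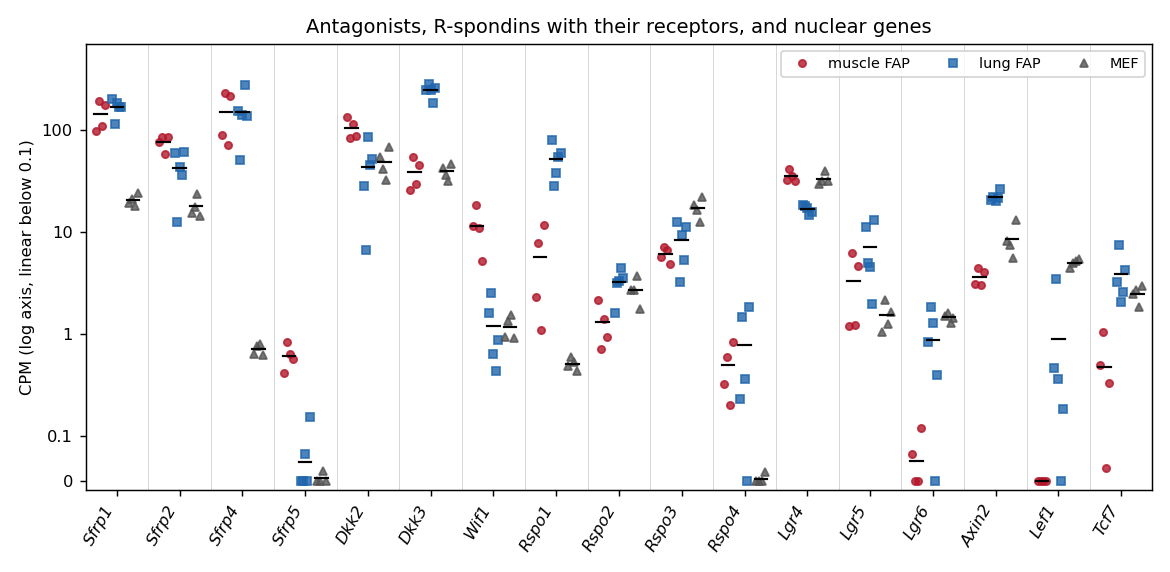
CPM (y axis, log scale, linear below 0.1) of the 7 tested antagonists, the 7 R-spondins and R-spondin receptors, and Axin2, Lef1 and Tcf7 in each library of muscle FAP, lung FAP and MEF, left to right within a gene, with bars at the group means. The lung FAP points lie above all others for Dkk3, Rspo1 and Axin2, and the muscle FAP points for Wif1 and Sfrp5, and Lef1 in lung FAP 2 lies at 3.48 CPM, apart from the rest of its group.

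Sfrp4, a secreted frizzled-related protein that binds WNTs, had 88.5, 231, 70.8 and 217 CPM in muscle FAP 2 to 5. Sfrp4 in lung FAP 1 to 5 had 155, 51.04, 141, 275 and 136 CPM, and in MEF 1 to 4 it had 0.630, 0.764, 0.795 and 0.615 CPM. Every FAP library was far above every MEF library (log2 fold change 7.75, SE 0.447, adjusted p in edgeR = 2.02e-07 for muscle FAP, 6.80 without muscle FAP 3 and 5, and log2 fold change 7.75, SE 0.401, adjusted p in edgeR = 1.74e-07 for lung FAP). The FAP groups overlap and their difference did not pass (log2 fold change 0.00316, SE 0.588, adjusted p in edgeR = 0.998). Muscle FAP 3 and 5 lay above muscle FAP 2 and 4, and without muscle FAP 3 and 5 the log2 fold change was -0.93 (adjusted p = 0.138). With libraries scaled by size alone it was -0.38. Sfrp1 had 97.7, 191, 109.7 and 176 CPM in muscle FAP 2 to 5. Sfrp1 in lung FAP 1 to 5 had 202, 115, 183, 170.2 and 169 CPM, and in MEF 1 to 4 it had 19.3, 20.995, 17.97 and 23.9 CPM. Both FAP groups again lay above MEF (edgeR log2 fold change 2.81, adjusted p = 3.33e-08 for muscle FAP and 3.03, adjusted p = 1.15e-08 for lung FAP). Muscle FAP against lung FAP did not pass (log2 fold change -0.22, SE 0.279, adjusted p in edgeR = 0.378) but passed without muscle FAP 3 and 5 (log2 fold change -0.69, adjusted p = 0.0121) and with libraries scaled by size alone (log2 fold change -0.62, adjusted p = 0.0107). Muscle FAP 3 and 5, set apart after seeing the data, held the most Sfrp1 of their group, so leaving them out must lower it.

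Dkk3, a divergent member of the DKK family, had 25.8, 54.01, 29.6 and 45.3 CPM in muscle FAP 2 to 5. Dkk3 in lung FAP 1 to 5 had 248, 283, 249, 184 and 259.7 CPM, and in MEF 1 to 4 it had 42.5, 35.9, 31.6 and 46.8 CPM. All lung FAP libraries lay above every other library (log2 fold change -2.66, SE 0.272, adjusted p in edgeR = 2.35e-07 for muscle FAP against lung FAP, and log2 fold change 2.64, SE 0.164, adjusted p in edgeR = 3.71e-08 for lung FAP against MEF). Muscle FAP and MEF overlap (log2 fold change -0.02, SE 0.281, adjusted p in edgeR = 0.938). Without muscle FAP 3 and 5 muscle FAP was lower (log2 fold change -0.52, adjusted p = 0.0270), and likewise with libraries scaled by size alone (log2 fold change -0.60, adjusted p = 0.0229). Muscle FAP 3 and 5, set apart after seeing the data, held the most Dkk3 of their group, so leaving them out must lower it. Dkk2 had 134, 83.9, 114 and 86.7 CPM in muscle FAP 2 to 5. Dkk2 in lung FAP 1 to 5 had 28.3, 6.62, 85.3, 45.7 and 51.9 CPM, and in MEF 1 to 4 it had 54.4, 41.9, 32.4 and 67.7 CPM. The level in muscle FAP was above all MEF libraries and all lung FAP libraries but lung FAP 3, and lung FAP 2 had the lowest value of all. Muscle FAP against lung FAP did not pass (log2 fold change 1.26, SE 0.648, adjusted p in edgeR = 0.0575) and passed without lung FAP 2 (log2 fold change 0.998, adjusted p = 0.0160), without lung FAP 3 (log2 fold change 1.66, adjusted p = 0.0135) and without both (adjusted p = 0.00111). Muscle FAP against MEF did not pass (log2 fold change 1.09, SE 0.281, adjusted p in edgeR = 0.0864) and passed when lung FAP was left out of the fit (adjusted p = 7.41e-04).

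Wif1, which binds WNTs outside the cell, had 11.4, 18.4, 10.9 and 5.21 CPM in muscle FAP 2 to 5. Wif1 in lung FAP 1 to 5 had 1.60, 2.48, 0.626, 0.432 and 0.873 CPM, and in MEF 1 to 4 it had 0.921, 1.34, 1.52 and 0.902 CPM. Muscle FAP lay above all other libraries (log2 fold change 3.24, SE 0.570, adjusted p in edgeR = 4.84e-05 against lung FAP, and log2 fold change 3.29, SE 0.415, adjusted p in edgeR = 3.03e-05 against MEF). Lung FAP and MEF overlap (edgeR adjusted p = 0.932). Sfrp5, known as an adipose antagonist of WNT5A in mice, was also highest in muscle FAP but low everywhere, with 0.408 to 0.828 CPM in muscle FAP, 0 to 0.150 CPM in lung FAP and 0 to 0.0227 CPM in MEF. It passed for muscle FAP against lung FAP (edgeR log2 fold change 3.76, adjusted p = 0.00268, and 5.07 without lung FAP 5). Against the single MEF count the ratio was 110.3 with a 95% counting interval of 19.3 to 4410.4 (edgeR adjusted p = 2.09e-04). Sfrp2 had 76.1, 86.4, 58.6 and 85.9 CPM in muscle FAP 2 to 5. Sfrp2 in lung FAP 1 to 5 had 59.1, 12.5, 43.3, 36.03 and 60.2 CPM, and in MEF 1 to 4 it had 15.5, 17.7, 23.6 and 14.4 CPM. Muscle FAP was above MEF (edgeR log2 fold change 2.11, adjusted p = 1.74e-04), and lung FAP was above MEF (1.25, adjusted p = 0.00554, and 0.0734 without MEF 2 and 4). Muscle FAP against lung FAP passed by a narrow margin (log2 fold change 0.86, SE 0.435, adjusted p in edgeR = 0.0495). The call was lost without any one of muscle FAP 2, 3, 4 or 5 (adjusted p = 0.0815, 0.109, 0.0518 and 0.0979), lung FAP 3 (0.0697) or lung FAP 4 (0.0876). It was also lost with scaling by library size alone (log2 fold change 0.48, adjusted p = 0.200).

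The 3 nuclear and target genes of the rule, Axin2, Tcf7 and Lef1, had their lowest mean in muscle FAP. This does not hold for WNT target genes at large. Of a list of 16 other tested targets, muscle FAP was higher than lung FAP in 7 and lower in 5 (75% passed, against 48.2% of all genes tested). Against MEF it was higher in 6 and lower in 4 (62.5%, against 73.5%). Axin2, a negative regulator that β-catenin signalling itself induces, had 3.06, 4.38, 3.02 and 4.01 CPM in muscle FAP 2 to 5. Axin2 in lung FAP 1 to 5 had 20.5, 21.8, 19.9, 21.5 and 26.2 CPM, and in MEF 1 to 4 it had 8.14, 7.49, 5.52 and 13.1 CPM. Muscle FAP was lowest and lung FAP highest, without overlap. Axin2 was lower in muscle FAP than in lung FAP (log2 fold change -2.60, SE 0.151, adjusted p in edgeR = 3.64e-07) and than in MEF (log2 fold change -1.24, SE 0.289, adjusted p in edgeR = 1.42e-04). Lung FAP was higher than MEF in Axin2 (log2 fold change 1.36, SE 0.265, adjusted p in edgeR = 3.25e-05). Tcf7, a partner of β-catenin in the nucleus, had 0.495, 1.04, 0.0288 and 0.329 CPM in muscle FAP 2 to 5. Tcf7 in lung FAP 1 to 5 had 3.21, 7.39, 2.03, 2.59 and 4.24 CPM, and in MEF 1 to 4 it had 2.45, 2.72, 1.82 and 2.91 CPM. Muscle FAP lay below all other libraries (log2 fold change -3.04, SE 0.849, adjusted p in edgeR = 8.52e-04 against lung FAP, and log2 fold change -2.38, SE 0.801, adjusted p in edgeR = 0.00272 against MEF), by more without muscle FAP 3 (log2 fold change -3.77 and -3.13). Lung FAP against MEF did not pass (edgeR adjusted p = 0.284).

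Lef1, a relative of Tcf7, had 0, 0, 0 and 0 CPM in muscle FAP 2 to 5. Lef1 in lung FAP 1 to 5 had 0.458, 3.48, 0.358, 0 and 0.181 CPM, and in MEF 1 to 4 it had 4.41, 4.90, 5.13 and 5.41 CPM. No muscle FAP library held a count, and the lung FAP libraries held 156. Set at 3 counts over the group, muscle FAP was at least 42.5-fold lower than lung FAP (edgeR adjusted p = 0.00765) and at least 226-fold lower than MEF (edgeR adjusted p = 5.57e-04). Without lung FAP 2, which holds 122 of these counts, the bound against lung FAP was 11.7-fold (edgeR adjusted p = 0.00199). Lung FAP was lower than MEF (log2 fold change -2.46, SE 0.977, adjusted p in edgeR = 0.0389), by more without lung FAP 2 (log2 fold change -4.31, adjusted p = 4.99e-05). That call was lost without any one of lung FAP 1, 3 or 5 (adjusted p = 0.0731, 0.0671 and 0.0675) or MEF 1, 2, 3 or 4 (0.0671, 0.0711, 0.0736 and 0.0755). The exons of Axin2, Lef1, Wnt11, Wnt5a, Wnt7b, Fzd5, Fzd6, Rspo3 and Sfrp2 overlap a gene on the opposite strand in GENCODE M21. Since no source used here gives the strand of counting, reads of the pairs cannot be told apart there.

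Taking the 47 genes by group, 9 had every muscle FAP library above every other library (19.1%, against 10.9% of all genes tested). These were Wnt11, Fzd4, Fzd5, Fzd8, Lrp5, Ror1, Ror2, Wif1 and Sfrp5. The levels are scaled by TMM, with factors of 0.777 to 0.808 in muscle FAP, 0.985 to 1.16 in lung FAP and 1.15 to 1.22 in MEF. Scaled by library size alone, Fzd4, Fzd8 and Ror2 in muscle FAP overlap another group. The share over all genes with that scaling was not taken. In 10 every muscle FAP library was below every other library (21.3%, against 9.32%), namely Wnt2b, Wnt4, Wnt5a, Wnt9a, Fzd2, Fzd3, Fzd6, Ryk, Axin2 and Tcf7. Lung FAP was above all others in 7 (14.9%, against 9.83%) and below in 4 (8.51%, against 8.12%). MEF was above in 9 (19.1%, against 27.9%) and below in 10 (21.3%, against 25.5%).

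Other genes of the pathway were taken from lists of secreted regulators, receptor partners, β-catenin machinery and target genes. Of 18 tested genes of WNT secretion and extracellular control muscle FAP was higher than lung FAP in 3 and lower in 6, and of 16 genes acting at the receptors higher in 4 and lower in 3. Of 26 genes of the β-catenin machinery it was higher in 8 and lower in 3, and of 16 target genes higher in 7 and lower in 5. The shares that passed were 50%, 43.8%, 42.3% and 75% of these lists, against 48.2% of all genes tested, and over the 76 genes 39 passed (51.3%). Musk, the muscle-specific kinase of the neuromuscular junction, which carries a frizzled-like domain, was at 41.2 CPM in muscle FAP and 3.69 CPM in lung FAP (edgeR log2 fold change 3.48, adjusted p = 4.66e-05). Ptk7, a pseudokinase of planar polarity, was at 9.29 CPM in muscle FAP and 41.8 CPM in lung FAP (edgeR log2 fold change -2.17, adjusted p = 1.44e-05). The target gene with the largest decrease was Tnfrsf19, a TNF receptor family member also called Troy, at 1.27 CPM in muscle FAP and 29.6 CPM in lung FAP (edgeR log2 fold change -4.54, adjusted p = 4.09e-06). The one with the largest increase was Twist1, a mesenchymal transcription factor (2.08, adjusted p = 1.86e-05). Among the rest, Tle4, a corepressor of TCF factors, and Gpc4, a cell-surface proteoglycan, were higher in muscle FAP (2.002 and 1.35), and Igfbp4 and Cby1 were lower (-1.47 and -0.51).

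Against MEF the share of these genes that passed was that of all genes, 57 of 76 in muscle FAP (75%, against 73.5%) and 56 of 76 in lung FAP (73.7%, against 74.4%). Muscle FAP was higher in 10 and lower in 8 of the 18 secreted and extracellular genes, higher in 5 and lower in 6 of the 16 at the receptors. It was higher in 6 and lower in 12 of the 26 of the β-catenin machinery, and higher in 6 and lower in 4 of the 16 targets, where 36.1% of all genes tested were higher and 37.3% lower. Lung FAP was higher in 10 and lower in 5, higher in 4 and lower in 5, higher in 6 and lower in 13, and higher in 7 and lower in 6 of the same lists, where 37.8% of all genes tested were higher and 36.6% lower. Ptk7 was at 9.29 CPM in muscle FAP and 41.8 CPM in lung FAP, against 335 CPM in MEF (edgeR log2 fold change -5.17 and -3.004). Wisp1, a secreted matricellular target of WNT1, was also lower in both, at 12.9 CPM in muscle FAP and 12.1 CPM in lung FAP, against 295 CPM in MEF (-4.52 and -4.61 in edgeR). Shisa3, whose relatives hold back frizzleds inside the cell in the frog, was at 19.6 CPM in muscle FAP and 19.1 CPM in lung FAP, against 0.366 CPM in MEF (5.74 and 5.70). The corepressor Tle2 was at 20.3 and 18.3 CPM in muscle FAP and lung FAP, against 2.43 CPM in MEF (3.06 and 2.90). In muscle FAP, Musk (8.44) and Dact1 (2.86) were higher and Frzb (-2.87) and Apc2 (-1.98) lower than in MEF. In lung FAP Nkd1 (4.87), which binds Dishevelled, and Prickle1 (1.27) were higher and Gpc4 (-3.38) and Pygo2 (-1.30) lower than in MEF.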

How the data were processed

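The authors deposited 1 table of read counts per gene for 13 mouse RNA-seq libraries, with 23418 genes and 0 columns of other samples. Per the labels' protocols, libraries were made by an Illumina method from total RNA, which Trizol and a column had purified. Bowtie2 2.1.0.0, HTSeq, edgeR and mm10 are named in the submitters' processing notes, whereas no source used here gives the annotation or the strand of counting. Genes were kept by filterByExpr (15412 genes), scaled by TMM and tested in edgeR 4.0.16 (R 4.3.3) with the robust quasi-likelihood test, group as the only factor, all 13 libraries in 1 fit and Benjamini-Hochberg adjustment over all genes kept, at 0.05. The code was tested on simulated data. SEs come from log2 CPM with a prior count of 2. Levels per kb divide CPM by the exon union of GENCODE M21 (GRCm38), which matched all 53 genes, and promoters are RefSeq's on GRCm38.p6. Where a group had 0 counts the fold is a bound against 3 counts over the group, and a group of 1 to 3 counts has an exact 95% counting interval, both covering counting error only.

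Named genes are, per comparison and direction, the 5 passing genes of largest change that reach 5 CPM in one group and whose groups do not overlap, with Axin2, Lef1, Tcf7, Lrp5 and Lrp6 and the most abundant gene of each role in each group. For these the value in every library is given, and others are given with their change or mean. Of the wider pathway, the passing gene with the largest change per list, comparison and direction at 5 CPM or more is named. The genes, lists and marker sets were chosen with earlier results of these data known. Alternatives were another scaling, 2 other filters, DESeq2 1.42.0, limma-voom (limma 3.58.1), the 2 compared groups alone, a replicate block, and leaving out each library or pairs of libraries. Leaving out muscle FAP 3 and 5, and MEF 2 and 4, was chosen after seeing the data.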

Additional observations from a re-analysis of the deposited data

Results flagged for a closer look

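The level of each of the 28 named genes was examined in each group of libraries, 81 sets with counts in all, for a library far from the rest of its group by Dixon's test, which by chance picks about 1 set in 20, and 5 were picked. Lef1 had 3.48 CPM in lung FAP 2, against 0 to 0.458 CPM in the other lung FAP libraries, and that library also has the highest endothelial and smooth muscle marker sums of its group. Lrp5 had 24.1 CPM in lung FAP 4, against 55.3 to 57.4 CPM in the others. Fzd10 had 0 CPM in lung FAP 5, against 0.266 to 0.328 CPM. Fzd1 had 101.4 CPM in MEF 4, against 63.2 to 69.5 CPM in the other MEF libraries. Wnt7a had 0.0296 CPM in muscle FAP 3, a single count, against 0 CPM in the other muscle FAP libraries. A single count among libraries without counts is always picked, so this pick was certain and the rate above does not apply to it. The cause of these values was not tested.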

How the results depend on the processing

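The number of WNT genes called stayed within 1.5 times its value under all settings run, except that lower calls in lung FAP against MEF numbered 10 without MEF 2 and 4, where fewer libraries enter the fit. Scaling by library size alone moved the median of all genes by -0.41, -0.58 and -0.17 on the log2 scale for the 3 comparisons (muscle FAP with lung FAP, muscle FAP with MEF, lung FAP with MEF), and the median of the WNT genes then was -0.92, -0.50 and -0.0968. The median of the WNT genes for muscle FAP against lung FAP was -0.85 without muscle FAP 3 and 5. That for lung FAP against MEF lies near 0 and was -0.14 in limma-voom, -0.145 with these groups alone, -0.0543 without lung FAP 2 and 3, and -0.0549 to 0.218 with 1 library left out.

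Of the values of named genes under the alternatives, 1526 kept direction and side of the threshold, 60 lost and 18 gained a call, and 39 changed sign, all 39 in differences that had not passed. With library size alone these were Fzd1 and Lgr4 in muscle FAP against MEF (-0.50 each, adjusted p = 0.00985 and 0.00165), Lrp6 and Sfrp4 in muscle FAP against lung FAP (-0.34 and -0.38) and Wif1 in lung FAP against MEF (-0.0968). Sfrp4 in muscle FAP against lung FAP was -0.000136 under a filter of 1 CPM in 4 libraries, -0.19 in limma-voom, -0.00858 with these groups alone, -0.32 without lung FAP 2 and 3, -0.93 without muscle FAP 3 and 5, -0.00322 without MEF 2 and 4 and -0.28 to 0.34 with 1 library left out. Dkk3 in muscle FAP against MEF was 0.00769 under that filter, 0.0161 with these groups alone, 0.0383 without MEF 2 and 4, and -0.25 to 0.12 with 1 library left out. Wif1 in lung FAP against MEF was -0.19 in limma-voom, -0.26 without lung FAP 2 and 3, -0.0278 without MEF 2 and 4, and -0.43 to 0.23 with 1 library left out. Lgr4 in muscle FAP against MEF was -0.000529 without muscle FAP 3 and 5, -0.0140 without MEF 2 and 4 and -0.0265 to 0.16 with 1 library left out. Fzd10 in muscle FAP against lung FAP was 0.62 in limma-voom and -0.65 to 0.00998 with 1 library left out. With 1 library left out Fzd1 in muscle FAP against MEF was -0.0168 to 0.24 and Dkk2 in lung FAP against MEF -0.56 to 0.0779. The cause was not tested.

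The labels do not say whether replicate numbers pair the libraries. Deviations of the 11 same-numbered pairs correlated at -0.0484 to 0.0612. Pairs with different numbers were not set beside them, so whether libraries of the same number share a source was not tested. With the replicate block there were 14 higher and 19 lower WNT genes in muscle FAP against lung FAP, 19 and 20 in muscle FAP against MEF, and 20 and 16 in lung FAP against MEF. Beside Lef1, Wnt7a and Wnt16, depth limits Wnt1, Wnt3, Wnt6, Wnt7b, Wnt10a, Sfrp5, Rspo4, Lgr6 and Fzd9. The fitted changes of these genes rest on few counts in at least 1 group. All alternatives were run, but 9 gave no value for a named gene. DESeq2 gave no adjusted p for Lef1 in any comparison (3 of these), the filter removed Fzd10, Lef1, Wnt16 and Wnt7a when muscle FAP and lung FAP were fitted alone (4), and Wnt7a had no count in muscle FAP and lung FAP without muscle FAP 3, alone or with muscle FAP 5 (2).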
